A study of Mus musculus with 12 samples.

Results

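Myosin light chains are the small subunits that sit on the neck of a myosin heavy chain. The essential (alkali) light chains stiffen the neck, and the regulatory light chains carry the serine whose phosphorylation by light chain kinases switches on non-muscle and smooth muscle myosin. T cells use non-muscle myosin for migration and for the rear of a crawling cell, whereas Myl1 is known as a light chain of fast skeletal muscle.

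The 5 genes described were Myl1, Myl4, Myl6, Myl9 and Myl10, taken from a table of gene symbols for the array probes, and they were followed over the 4 sorted fractions of Peyer's patch T cells. They stand among 19321 gene symbols with a probe, of which 16942 genes were tested. Myl1, Myl4, Myl6 and Myl10 had 1 probe each. No probe carried the symbol Myl9, the regulatory light chain of smooth muscle, and it was not analysed here. Myl1 and Myl10 were chosen by their measured values, because DN cells differed from the other fractions in them, so every DN comparison of the 4 measured genes is given as a description without a test. Tests of these genes were made only between CD4, CD8 and γδ cells. All 4 passed the filter on dim probes, Myl4 only through the DN arrays.

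Cells came from Peyer's patches, the lymphoid follicles of the small intestine, of pooled C57BL/6 mice (3 to 5 mice a pool, 10 weeks old, both sexes). DN cells were sorted as TCRβ+ cells lacking γδTCR, CD4 and CD8β, CD4 cells as TCRβ+ cells with CD4, CD8 cells as TCRβ+ cells with CD8β and without CD4, and γδ cells as γδTCR+ cells lacking TCRβ. Purity after sorting was given as above 98%, and no fraction carried a transgene or a treatment. RNA was collected 3 times from each fraction and each collection was read on 1 single-colour array, 12 arrays in all. The number of arrays limits the precision, and whether the 3 collections used different mice is not given in the sources used here, so p-values here reflect the spread among these RNA collections, which may be technical.

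A pair of libraries went against their labels. Cd8b1, which encodes the CD8β chain used in the sort, reached 13.80 and 13.62 log2 units on the CD8 2 and CD8 3 arrays but 8.57 on the array labelled CD8 1. It was 13.91 for the library labelled γδ 1, against 8.29 and 8.14 for γδ 2 and γδ 3. Cd163l1, a scavenger receptor gene of γδ T cells, was at 8.23 in the library labelled CD8 1 and 6.10 in the library labelled γδ 1, where γδ 2 and γδ 3 had 8.57 and 8.48. Results are therefore given with and without these 2 libraries. Cd4 lay between 8.76 and 9.97 in CD4 cells and between 6.00 and 6.16 in the other 9 arrays, DN included. Cd8a encodes the CD8α chain, which is not among the sort markers given above. Its brighter probe was at 14.42, 14.35 and 14.22 in DN cells and between 7.75 and 7.96 in CD4 cells. It was at 13.85 and 13.49 in CD8 2 and CD8 3, and at 13.83 and 13.49 in γδ 2 and γδ 3. DN here thus means sorted without CD4 and CD8β, and not without Cd8a transcript. Replicate 1 of every fraction was run on 4 arrays of 1 array series and replicates 2 and 3 on 8 arrays of another, as the array names show.

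The starts of Myl1 and Myl10 are shown because these are the genes in which the DN arrays stood apart, upward in Myl1 and downward in Myl10. Each window holds 250 bases before and 50 bases after an annotated start, from RefSeq on build GRCm38.p6, with E-boxes (CANNTG, the motif of basic helix-loop-helix factors, which include the muscle regulators) in capitals. The Myl1 window is chr1:66945007-66945306 on the minus strand, 2.88 kb inside the 5′ end of the gene (chr1:66924295-66947932), a gene known to be transcribed from more than 1 promoter. The Myl10 window is the first of 3, chr5:136692896-136693195 on the plus strand, within the gene at chr5:136688892-136701857.
Myl1: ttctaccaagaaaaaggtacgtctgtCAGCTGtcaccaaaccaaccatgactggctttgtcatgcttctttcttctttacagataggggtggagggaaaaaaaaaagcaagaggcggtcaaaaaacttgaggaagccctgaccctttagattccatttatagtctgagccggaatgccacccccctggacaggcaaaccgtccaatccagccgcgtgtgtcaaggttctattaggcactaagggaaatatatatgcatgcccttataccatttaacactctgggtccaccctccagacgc
Myl10: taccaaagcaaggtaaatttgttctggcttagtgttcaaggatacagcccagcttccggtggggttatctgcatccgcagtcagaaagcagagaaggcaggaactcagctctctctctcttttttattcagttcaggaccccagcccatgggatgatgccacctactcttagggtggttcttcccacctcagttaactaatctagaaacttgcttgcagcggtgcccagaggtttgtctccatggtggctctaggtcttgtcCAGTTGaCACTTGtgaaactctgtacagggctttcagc
The Myl1 window held 1 E-box, at position -224 from the start, and the letters TATAAA on the opposite strand at position -95. The Myl10 window held 2 E-boxes just after the start, at positions 12 and 19, and GATAA on the opposite strand at position -186. With both strands searched, an E-box occurred in 72.3% of 32851 windows of this length, GATAA in 25.4% and TATAAA in 13.6%, so an E-box is the usual case. The other 2 Myl10 windows held none of the 3 motifs.

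Among the essential light chains, Myl1 was higher on all 3 DN arrays than on any other array. The normalised log2 signal, after background correction and quantile normalisation of all arrays, was 7.14, 6.80 and 6.80 in DN cells. It was 5.82, 5.83 and 5.82 in CD4 cells, 5.92, 5.81 and 5.82 in CD8 cells and 5.94, 5.86 and 5.87 in γδ cells. The DN arrays did not overlap the others, and the other fractions lay within a narrow band close to the signal of blank spots. The difference was 1.09 ± 0.08 (log2, SE, n = 3 each) for DN minus CD4, 1.06 ± 0.08 for DN minus CD8 and 1.02 ± 0.08 for DN minus γδ. Leaving out the libraries labelled CD8 1 and γδ 1, the last 2 differences were 1.10 and 1.05. Over the 16942 genes tested, Myl1 ranked 225 from the top for DN minus CD4, 156 for DN minus CD8 and 53 for DN minus γδ. In bulk RNA, fewer cells that carry a transcript and less transcript per cell cannot be told apart.

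The deposited values give the same order over a wider range. Myl1 had 109.4, 79.5 and 75.4 in DN cells. It had 7.4, 5.4 and 3.7 in CD4 cells, 11, 3.5 and 4.9 in CD8 cells and 12.6, 7.5 and 5.8 in γδ cells. On geometric means these are ratios of 16.4, 15.1 and 10.6 for DN over CD4, CD8 and γδ cells, against 2.13, 2.09 and 2.03 on the normalised scale, where the added offset of 50 holds dim signals together. The size of the Myl1 difference differed between these scales, which are set apart by several steps of processing, and its direction was the same on both. Within replicate 1 the log2 difference was 1.32 against CD4, 1.22 against CD8 and 1.20 against γδ, and over replicates 2 and 3 it was 0.98, 0.99 and 0.94.

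**Figure D1:**
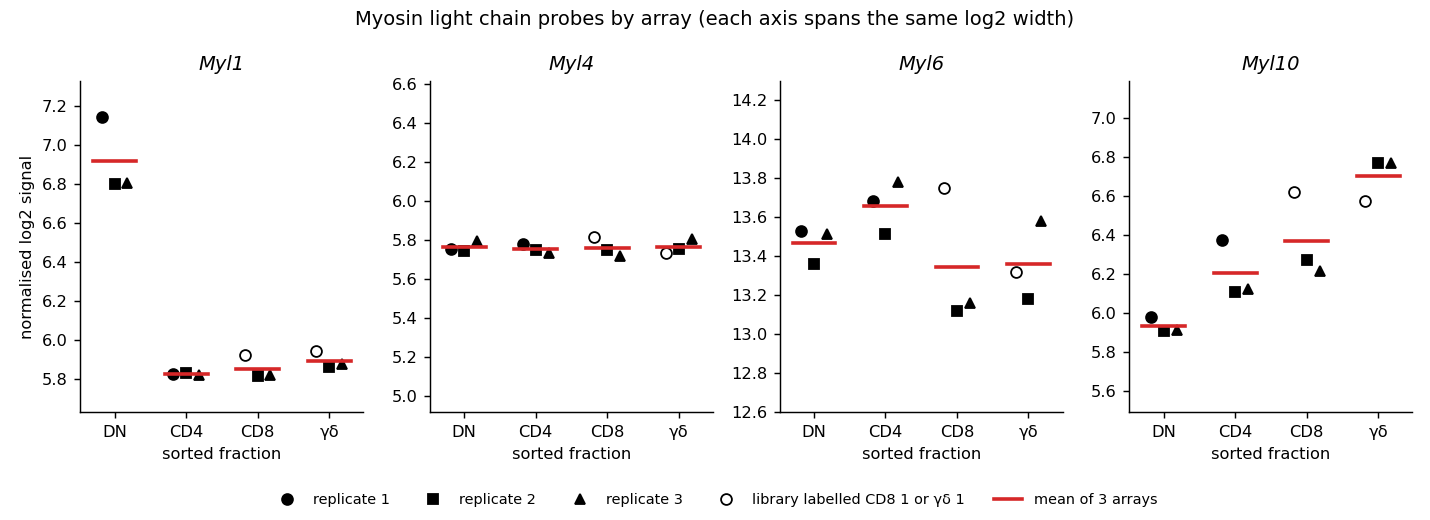
Normalised log2 signal (vertical axes, the same width in each panel) of the 4 measured light chain genes on each array of the 4 fractions (horizontal axes), with symbols for the replicate, open symbols for the libraries labelled CD8 1 and γδ 1, and red bars for means of 3 arrays. Myl1 was at 6.80 to 7.14 in DN cells and at 5.94 or below elsewhere, Myl10 was lowest in DN cells, and Myl4 and Myl6 overlapped between fractions.

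**Figure D2:**
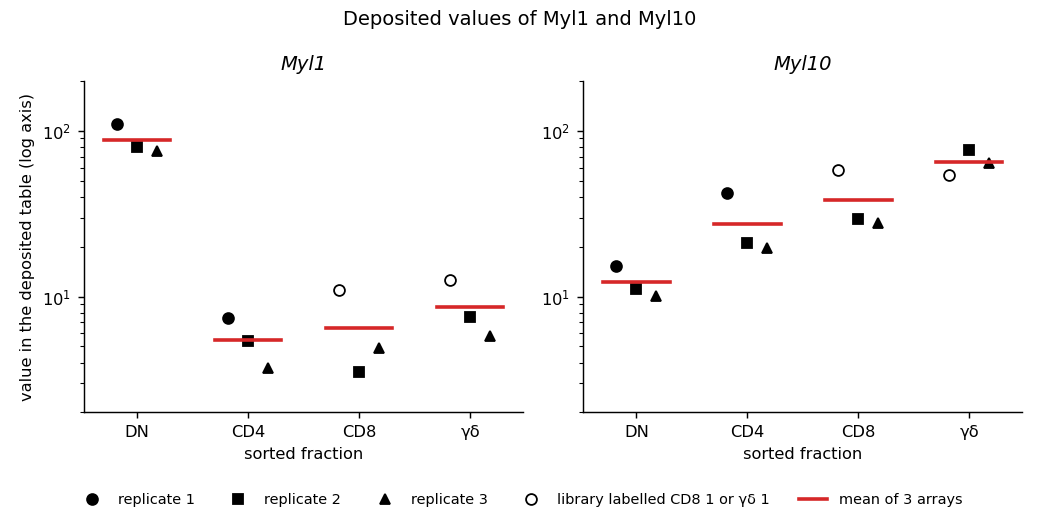
Values of Myl1 and Myl10 in the deposited table (vertical axis, log scale) on each array of the 4 fractions, with red bars for means. Myl1 lay between 75.4 and 109.4 in DN cells and at 12.6 or below elsewhere, and Myl10 lay between 10.1 and 15.3 in DN cells and at 19.7 or above elsewhere.

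The surroundings of the Myl1 spot were bright on the DN arrays too. The scanner signal of the spot was 130.1, 131.9 and 125.9 on the DN arrays and between 62.8 and 70.2 on the other 9. Blank spots averaged 58.6 to 62.2 over the arrays. The local background of the Myl1 spot was 106.1, 136.1 and 110.1 on the DN arrays, against 56.4 to 61.8 on the other 9, so in DN 2 the background was above the spot. Spots of like signal (within 5%) on the same DN arrays had median local backgrounds of 86.2, 102.1 and 83.7. The Myl1 background lay above 91.0% of theirs in DN 1 and 94.5% in DN 3, and above all of them in DN 2. By such medians, brighter spots had brighter surroundings on the DN arrays. Spots with a signal like that of Myl10 (69.0 to 70.6) had medians of 60.3, 59.8 and 59.1. The few spots with a signal like that of Myl6 (9031.5 to 9683.7) had medians of 4248.2, 6357.9 and 4117.9. A raised local background was thus not particular to Myl1, though its background was high even among spots of like signal. In spot signal, none of the 5 spots read next to the Myl1 spot was above all other arrays on the DN arrays. The local background of those 5 spots was not read. After plain subtraction Myl1 was left with 24.0, -4.2 and 15.8 units in DN cells, against 3.1 to 10.5 on the other 9 arrays. With the local background subtracted before the same normalisation, which was tried only after these values had been seen, the Myl1 difference was 0.12 for DN minus CD4, 0.11 for DN minus CD8 and 0.07 for DN minus γδ, and DN overlapped the others. The part of the local background in the Myl1 signal was not tested.

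**Figure D3:**
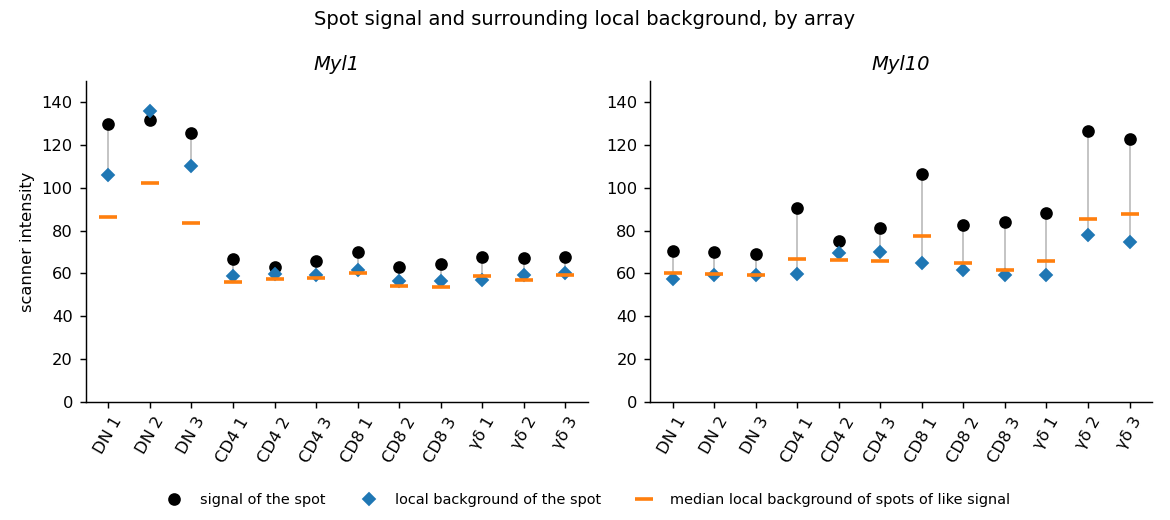
Scanner intensity (vertical axes) of the spot (black circles), its local background (blue diamonds) and the median local background of spots of like signal on that array (orange bars), for Myl1 and Myl10 on each of the 12 arrays. The Myl1 background was at 106.1 to 136.1 on the DN arrays and at 61.8 or below elsewhere, whereas the Myl10 spot lay above its background on every array.

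Transcripts of other cell types also differed between the fractions. The mean log2 signal of 11 B cell genes was 8.32 to 8.79 in DN cells, 6.36 to 6.67 in CD4 cells, 6.40 and 6.44 in CD8 2 and 3, and 8.37 and 8.39 in γδ 2 and γδ 3, where Myl1 was low. The libraries labelled CD8 1 and γδ 1 had 7.89 and 6.69. The mean of 15 intestinal epithelium genes was 6.83 to 7.04 in DN cells and 6.40 to 6.45 in CD4 cells. It was 6.38 and 6.34 in CD8 2 and CD8 3, and 6.64 and 6.63 in γδ 2 and γδ 3. It was 6.38 in the library labelled γδ 1 and 6.87 in the library labelled CD8 1, in which Myl1 was at 5.92. The mean of 8 macrophage and dendritic cell genes was 6.84 to 6.905 in DN cells, 6.47 to 6.55 in CD4 cells, 6.40 in CD8 2 and CD8 3, and 6.78 and 6.79 in γδ 2 and γδ 3. The mean of 11 genes of unconventional T cells and natural killer receptors was 9.08 to 9.20 in DN cells, 6.50 to 6.63 in CD4 cells, 7.25 and 7.26 in CD8 2 and CD8 3, and 8.93 and 8.92 in γδ 2 and γδ 3. The mean of 11 T cell genes was lower, at 8.58 to 8.84 in DN cells, against 9.84 to 10.4 in CD4 cells, 9.76 and 9.87 in CD8 2 and CD8 3, and 8.96 and 8.95 in γδ 2 and γδ 3. In all 3 of these means DN cells were closer to γδ 2 and γδ 3, where Myl1 was low, than to CD4 cells. In DN against CD4 cells 1 of 11 B cell genes (Ebf1) and 1 of 15 epithelial genes (Reg3b) rose (limma, 11 and 9 at an unadjusted p under 0.05). Of all genes 2.28% were called there in either direction. Leaving out the 2 libraries, 10 and 8 rose, where 5.08% of all genes were higher. The mean of 20 skeletal muscle genes was 6.30 to 6.33 in DN cells, 6.09 to 6.10 in CD4 cells, 6.14 and 6.18 in CD8 2 and CD8 3, 6.29 and 6.31 in γδ 2 and γδ 3, and 6.24 and 6.20 for CD8 1 and γδ 1 as labelled. Of these 20 genes, 1 rose and 1 fell in DN against CD4 cells, namely Actn2, a sarcomeric α-actinin (log2 2.51 ± 0.42, SE, adjusted p = 0.0182), and Neb, which encodes the thin filament ruler nebulin (-0.20 ± 0.04, adjusted p = 0.0325). Actn2 was as high in γδ 2 and γδ 3, at 9.68 and 9.79, as in DN cells, at 9.57, 9.52 and 9.42, so it did not follow Myl1. With the 2 libraries left out, 4 of the 20 rose and 2 fell, where 5.08% of all genes were higher and 5.52% lower. Those that rose were Actn2, the fast troponin I gene Tnni2 (0.42, adjusted p = 0.000895), the fast myosin-binding protein gene Mybpc2 (0.48, adjusted p = 0.0316) and the muscle creatine kinase gene Ckm (0.75, adjusted p = 0.0377), and those that fell were Neb and the slow troponin T gene Tnnt1 (-0.31, adjusted p = 0.0128). Tnni2 was at 6.24 to 6.40 in DN cells and at 5.86 to 5.92 in CD4 cells, close to background, and it was at 6.25 and 6.23 in γδ 2 and γδ 3. Mybpc2 was at 6.19 to 6.60 in DN cells and at 6.10 and 6.16 in γδ 2 and γδ 3. Ckm was at 6.36 to 7.04 in DN cells and at 6.99 and 6.79 in γδ 2 and γδ 3. In DN against γδ cells 0 of the 20 were called in either fit, where 0.0118% and 0.968% of all genes were. Of 11 smooth muscle genes 2 were lower in DN than in CD4 cells, where 2.28% of all genes were called in either direction. They were the smooth muscle actins Acta2 (-0.59 ± 0.03, adjusted p = 2.38e-05) and Actg2 (-0.76 ± 0.13, adjusted p = 0.018). Both were highest in CD4 cells. Acta2 was at 6.45 to 6.54 there and at 5.89 to 5.94 in DN cells. It was at 5.82 to 5.87 in CD8 and 5.79 to 5.83 in γδ cells. Actg2 was at 6.60 to 6.98 in CD4 and 5.98 to 6.02 in DN cells. It was at 5.94 to 6.39 in CD8 and 5.96 to 6.15 in γδ cells. The calcium store gene Casq1 had a deposited value on 0 arrays, Mybpc1 on 1, the calcium channel gene Cacna1s on 2 and skeletal actin Acta1 on 7 of 12. None of the 8 tested cardiac genes was called in DN against CD4 cells, and 0 had an unadjusted p under 0.05. Their mean was 5.88 to 5.90 in DN cells and 5.89 to 5.91 in CD4 cells, close to background, so a change could be missed. The part of these cell types in the Myl1 result was not tested.

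Myl4, the essential light chain of atrial and embryonic muscle, lay close to blank spots in every fraction. Its log2 signal lay between 5.74 and 5.79 in DN cells, 5.73 and 5.78 in CD4 cells, 5.72 and 5.81 in CD8 cells and 5.73 and 5.80 in γδ cells. The deposited table had a value for it on 3 DN, 2 CD4, 1 CD8 and 2 γδ arrays, all between 1.5 and 5.4, and on those arrays the spot lay just above the 95th percentile of blank spots (63.0 against 62.8 scanner units in DN 1). No direction was read from a probe at this level, and between CD4, CD8 and γδ cells its adjusted p was 0.999 or above.

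Myl6, the essential light chain of non-muscle and smooth muscle myosin, gave a bright signal in every fraction. Its log2 signal was 13.53, 13.36 and 13.51 in DN cells. It was 13.68, 13.51 and 13.78 in CD4 cells, 13.75, 13.12 and 13.16 in CD8 cells and 13.32, 13.18 and 13.58 in γδ cells. All fractions overlapped. DN minus CD4 was -0.19 ± 0.17 (log2, SE), DN minus CD8 0.13 ± 0.17 and DN minus γδ 0.11 ± 0.17, each about as large as its SE or smaller. The last 2 had the opposite sign on the deposited values, at -0.27 each, and with median scaling, at -0.31 and -0.22. With the local background subtracted, DN minus CD4 was 0.23 and DN minus γδ -0.35, so no direction holds for Myl6 under every scaling. The local background of this spot varied widely between arrays, which limits that last setting. It was 8510.5 beside a spot signal of 9123.9 in DN 2, and 1137.6 beside 9031.5 in DN 3. Leaving out the 2 libraries gave 0.33 for DN minus CD8. CD8 cells held the widest spread, which came from the library labelled CD8 1.

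Among the regulatory light chains, Myl10 was lower on all 3 DN arrays than on any other array. In mouse this gene is known from precursor lymphocytes. Its log2 signal was 5.98, 5.91 and 5.92 in DN cells. It was 6.38, 6.11 and 6.13 in CD4 cells, 6.62, 6.28 and 6.22 in CD8 cells and 6.58, 6.77 and 6.77 in γδ cells. By their means DN and γδ cells were at the ends of the order, and CD4 and CD8 cells overlapped each other. The library labelled CD8 1, at 6.62, lay above that labelled γδ 1, at 6.58, so CD8 and γδ cells overlapped with all libraries. The difference was -0.27 ± 0.11 (log2, SE, n = 3 each) for DN minus CD4, -0.43 ± 0.11 for DN minus CD8 and -0.77 ± 0.11 for DN minus γδ. Leaving out the libraries labelled CD8 1 and γδ 1, the last 2 were -0.31 and -0.83. Myl10 ranked 44 from the bottom of 16942 genes for DN minus γδ, 551 for DN minus CD8 and 1506 for DN minus CD4. The DN spots were dim, at 70.6, 70.2 and 69.0 scanner units, where blank spots on those arrays averaged 60.9, 60.2 and 60.3. The size of the DN differences is therefore limited by the low end of the scale.

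The deposited values of Myl10 were 15.3, 11.1 and 10.1 in DN cells. They were 41.9, 21.2 and 19.7 in CD4 cells, 57.7, 29.2 and 27.8 in CD8 cells and 54.5, 76.2 and 63.8 in γδ cells. Replicate 1 was the highest array of DN, CD4 and CD8 cells and the lowest of γδ cells. The ratios of geometric means were 0.461 for DN over CD4, 0.332 for DN over CD8 and 0.186 for DN over γδ cells. Within replicate 1 the log2 difference was -0.40 against CD4, -0.64 against CD8 and -0.59 against γδ, and over replicates 2 and 3 it was -0.20, -0.33 and -0.86. The Myl10 spot, unlike that of Myl1, lay above its local background on all 12 arrays, by 9.6 to 13.4 units in DN cells, 5.8 to 31.3 in CD4 cells, 21.5 to 41.2 in CD8 cells and 29.1 to 48.6 in γδ cells. With the local background subtracted first, DN minus CD4 was -0.07, DN minus CD8 -0.24 and DN minus γδ -0.41, and the DN arrays were no longer apart from all others.

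The DN arrays lay wholly above or wholly below the other 9 arrays in 2 of the 4 measured genes, Myl1 and Myl10, which is how they had been picked. The same held for 3.31% of all genes tested, 1.65% in each direction. Across the 12 arrays Myl1 and Myl10 had a Pearson correlation of -0.64, and across the 9 arrays without DN it was 0.68. The negative value over all 12 arrays was thus set by the DN arrays. The arrays share 1 normalisation and 2 array series, and no p is given.

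Between the other fractions no light chain passed the test with all libraries. Of the 4 genes, 0 were called (limma, adjusted p under 0.05) in CD4 against CD8, where 1.07% of all genes were, 0 in CD4 against γδ, where 1.14% were, and 0 in CD8 against γδ, where 0% were. At an unadjusted p under 0.05 there were 0, 1 and 1, and the gene was Myl10 in both comparisons with γδ cells. Without the 2 libraries the counts were 0, 1 and 1, against 5.39%, 9% and 7.38% of all genes.

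Myl10 was 0.50 log2 units lower in CD4 than in γδ cells (-0.50, 95% interval -0.76 to -0.25, adjusted p = 0.0884), and the fractions did not overlap. Without the 2 libraries the difference was -0.57 (-0.75 to -0.38, adjusted p = 0.00458). The call also appeared when only CD4 1 was left out (adjusted p = 0.0491), only the library labelled CD8 1 (0.0202) or only the library labelled γδ 1 (0.0441), and over the 12 fits that each left out 1 library the adjusted p ran between 0.0202 and 0.333. Taking the array series as a block gave 0.0331, and taking the replicate number as a block gave 0.0632, with no call. CD8 minus γδ was -0.33 (-0.59 to -0.08, adjusted p = 1.0), and it was -0.52 (-0.73 to -0.32, adjusted p = 0.0118) without the 2 libraries. CD4 minus CD8 was -0.17 (-0.42 to 0.09, adjusted p = 1.0). The Myl10 signal of γδ 2 and γδ 3 was thus above that of CD4 cells and of CD8 2 and CD8 3, while the libraries labelled CD8 1 and γδ 1 were near each other at 6.62 and 6.58.

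Myl6 was 0.32 log2 units higher in CD4 than in CD8 cells (-0.07 to 0.70, adjusted p = 0.877), and 0.52 higher without the 2 libraries (0.22 to 0.82, adjusted p = 0.0637). With the replicate number as a block and without these libraries the adjusted p was 0.014, with a difference of 0.50. For Myl6, CD4 minus γδ was 0.30 (-0.08 to 0.68, adjusted p = 0.707) and CD8 minus γδ -0.02 (-0.40 to 0.36, adjusted p = 1.0). None of the Myl1 differences between these fractions passed the test. Its CD4 minus CD8 difference was -0.03 (-0.21 to 0.16), CD4 minus γδ -0.07 (-0.25 to 0.12) and CD8 minus γδ -0.04 (-0.23 to 0.15), with adjusted p of 0.984 or above in each. These intervals hold for the normalised scale, on which the offset holds signals near blank spots together. On the deposited values CD4 minus γδ was -0.63 and CD8 minus γδ -0.51, outside those intervals. The CD4 and γδ arrays did not overlap in Myl1 on the normalised scale. On the deposited values they did, as CD4 1 had 7.4 and γδ 3 had 5.8.

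Other light chains were read from a list of 8 genes, of which 7 had a probe and 6 were tested. With all libraries 0 were called in DN against any fraction (limma, 2, 1 and 1 at an unadjusted p under 0.05 against CD4, CD8 and γδ cells). Of all genes 2.28%, 0.0177% and 0.0118% were called there, so a count of 0 among 6 says little about these light chains. In the fit without the 2 libraries, 2 of the 6 were called against CD4 and 2 of the 6 against CD8 cells, where 10.6% and 12.9% of all genes were. Myl2, the regulatory light chain of slow and ventricular muscle, was at 5.99, 6.10 and 5.96 in DN cells and between 5.71 and 5.94 on the other 9 arrays. Its DN minus CD4 difference was 0.21 ± 0.06 (adjusted p = 0.123), and without the 2 libraries it rose against CD4 (0.21 ± 0.04, adjusted p = 0.0111) and CD8 cells (0.22 ± 0.04, adjusted p = 0.0129), while DN minus γδ was 0.13 ± 0.04 (adjusted p = 0.269). Mylpf, the fast skeletal regulatory light chain and the usual partner of Myl1, was at 6.44, 6.50 and 6.52 in DN cells, against 6.80, 7.03 and 6.84 in CD4 cells and 6.55 and 6.45 in γδ 2 and γδ 3. With all libraries DN minus CD4 was -0.41 (adjusted p = 0.297), DN minus CD8 -0.30 (adjusted p = 0.654) and DN minus γδ -0.17 (adjusted p = 1.0). Without the 2 libraries it fell against CD4 (-0.41 ± 0.06, adjusted p = 0.00621) and CD8 cells (-0.47 ± 0.07, adjusted p = 0.00489), and DN minus γδ was -0.01 ± 0.07 (adjusted p = 0.964). Myl12b, a non-muscle regulatory light chain, was bright everywhere, at 11.997 to 12.66 in DN cells and 12.01 to 12.81 elsewhere. For Myl3, Myl6b and Myl7 the DN minus CD4 difference was between -0.03 and 0.01.

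**Figure D4:**
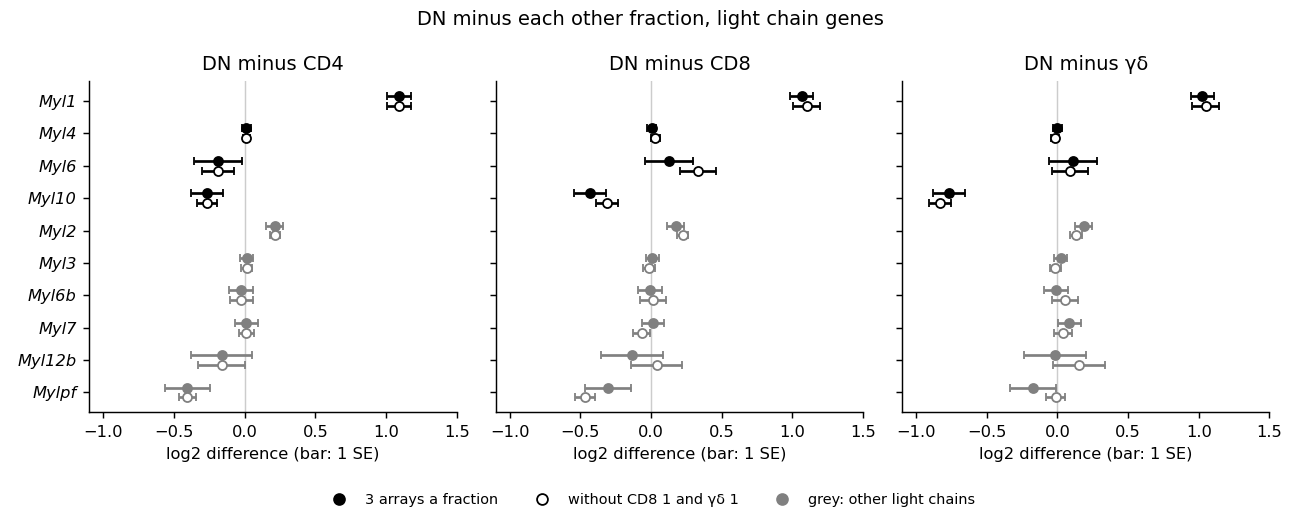
Log2 differences of DN minus CD4, DN minus CD8 and DN minus γδ cells (horizontal axes) for the 4 measured genes (black) and 6 other light chains (grey), with all libraries (filled) and without those labelled CD8 1 and γδ 1 (open), and bars of 1 SE. Myl1 lay between 1.02 and 1.10 in all 3 panels, and Myl10 reached -0.83 against γδ cells.

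The wider actomyosin list held 71 genes (other light chains, class II heavy chains, unconventional myosins, and light chain kinases, phosphatases and their regulators), of which 55 were tested. With all libraries 0 were called in DN against CD4, CD8 or γδ cells, against 2.28%, 0.0177% and 0.0118% of all genes (limma, with 10, 5 and 3 at an unadjusted p under 0.05), and 1 in DN against CD4 with the replicate block. Without the 2 libraries 10 were called against CD4 (7 higher and 3 lower), 9 against CD8 (7 higher and 2 lower) and 0 against γδ cells (5 at an unadjusted p under 0.05), where 10.6%, 12.9% and 0.968% of all genes were. Over all genes 5.08% were higher and 5.52% lower than in CD4 cells, and 5.98% higher and 6.95% lower than in CD8 cells. Adding the replicate block to that made them 11, 12 and 2, and the share of all genes called in that fit was not counted. The median log2 difference of the list was -0.01 against CD4 cells, as it was for all genes.

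Of 18 unconventional myosins tested, 5 were called against CD4 cells without the 2 libraries, all 5 higher, where 5.08% of all genes were higher. Each of the 5 was also called lower in CD4 than in γδ cells and lower in CD8 than in γδ cells in that fit. The B cell genes above were likewise high in DN, γδ 2 and γδ 3, and their part in the myosin result was not tested. Myo1e, a membrane-binding class I myosin, was at 9.89, 9.83 and 10.40 in DN cells, against 7.23, 7.21 and 7.38 in CD4 cells, and rose by 2.77 ± 0.19 log2 units (adjusted p = 0.000107). Myo1f, its relative in blood cells, rose by 2.06 ± 0.24 (adjusted p = 0.00164) and Myo1c by 1.45 ± 0.23 (adjusted p = 0.0069). Myo5a and Myo6, cargo-carrying myosins, rose by 0.24 and 0.20 near the low end of the scale. Dapk2, a kinase that can phosphorylate regulatory light chains, was at 12.19, 10.96 and 11.32 in DN cells and 6.72, 6.22 and 6.34 in CD4 cells, a rise of 5.06 ± 0.32 (adjusted p = 7.43e-05). Ppp1r14b, an inhibitor of myosin phosphatase, fell by 1.09 on the log2 scale (adjusted p = 0.00251). Dapk2 and Myo1e were also high in γδ 2 and γδ 3, at 10.58 and 11.10 and at 9.003 and 9.58, where Myl1 was not. Of the 9 class II heavy chains tested, 1 fell in the same comparison, the embryonic chain Myh3 (-0.18 ± 0.04, adjusted p = 0.0375).

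The genes most like Myl1 over the 12 arrays, by Pearson correlation, were Chac1 (0.969), a glutathione-degrading enzyme, Reg3b (0.955), an antibacterial lectin of intestinal epithelium, Klra16 (0.947), of the Ly49 receptor family, Prl3a1 (0.946) and Kcnj8 (0.944), a potassium channel subunit. Without the 2 libraries they were Kcnj8 (0.982), Reg3b (0.980), Rgs4 (0.976), Chac1 (0.9750) and Shisa4 (0.974). Reg3b averaged 7.34 ± 0.21 log2 units in DN cells (SD, n = 3), against 6.13 in CD4, 6.24 in CD8 and 6.18 in γδ cells, and Klra16 averaged 6.73 ± 0.15, against 5.70, 5.77 and 5.77. Chac1, Prl3a1 and Rgs4 were near the low end of the scale. Chac1 was at 5.94 to 6.09 in DN cells and 5.73 to 5.81 elsewhere. Prl3a1 was at 5.77 to 5.83 against 5.68 to 5.73, and Rgs4 at 5.83 to 5.87 against 5.71 to 5.78. For Myl10 over 12 arrays they were Foxd2os (0.932), Pebp1 (0.908), Pdlim2 (0.894), Msc (0.886) and Slf2 (0.881), and over 10 arrays the histone genes H4c2 (0.955) and H4c1 (0.951), then Wnt7a (0.937), Cfdp1 (0.931) and Nkiras1 (0.924). No gene was on both Myl10 lists. These correlations rest on 4 groups of arrays that share their normalisation and array series.

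**Figure D5:**
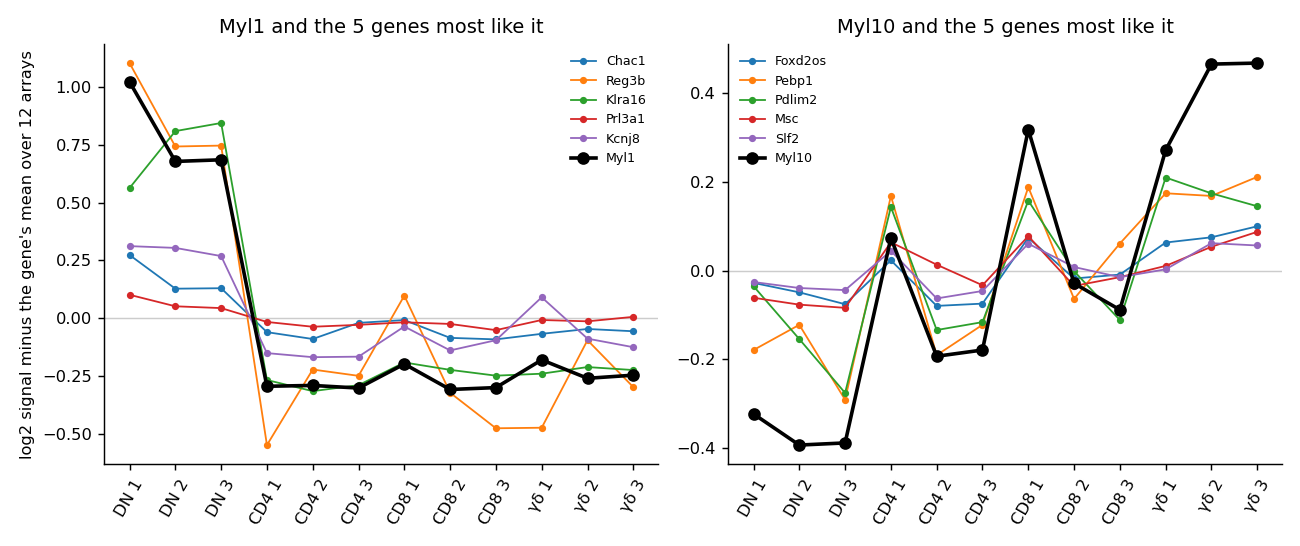
Log2 signal minus each gene's mean over 12 arrays (vertical axes) by array (horizontal axes) for Myl1 (left) and Myl10 (right), in black, and the 5 genes most like each over 12 arrays, in colour. The Myl1 group is set by its 3 DN arrays, and most Myl10 companions span a smaller range than Myl10 itself.

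Of 4 neighbours of Myl1 on the chromosome, Acadl was the one with sizeable differences. Acadl, a mitochondrial acyl-CoA dehydrogenase gene at a distance of 61.0 kb, averaged 9.59 in DN cells, against 8.75 in CD4, 8.85 in CD8 and 9.20 in γδ cells. DN minus CD4 was 0.84 (adjusted p = 0.403, and 0.0103 without the 2 libraries), DN minus CD8 0.75 (adjusted p = 0.655, and 0.00222) and DN minus γδ 0.39 (adjusted p = 1.0, and 0.423). Lancl1, Kansl1l and Cps1, on either side, differed by 0.107 or less between DN and any fraction, and none was called. Around Myl10, Cux1, a homeobox gene at 121.3 kb, averaged 8.73 in DN cells, against 9.46 in CD8 cells, a difference of -0.74 (adjusted p = 0.729, and 0.0284 without the 2 libraries). Col26a1, Ift22 and Sh2b2 differed by 0.083 or less between DN and any fraction, and none was called.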

How the data were processed

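RNA was extracted with a column kit, amplified, labelled with Cy5 and hybridised to a mouse 24k oligonucleotide array, per the labels' protocols. The authors deposited the scanner intensity of each spot and of its local background, and a value table of linear intensity in which dim probes are empty and whose scaling is not given in the sources used here. The groups followed the sample titles. Spot intensities were corrected with normexp (offset 50, no local background), put on the log2 scale, quantile normalised and fitted with limma 3.58.1 in R 4.3.3, with Benjamini-Hochberg adjustment over 16942 genes that had a deposited value on all 3 arrays of at least 1 fraction. A gene was called at an adjusted p under 0.05. The probe of highest mean stood for a gene, and 25 probes with scanner marks were left out. Of 23473 probes, 20690 had a symbol in the platform annotation. Genes were named by rules on rank and list membership.

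The light chain genes, lists and rules were chosen with earlier results of these data known. The fit was tested on simulated data first. Same-numbered arrays deviated together in 18 of 18 pairs (correlations 0.100 to 0.735), so the replicate number was used as a block in an alternative fit. It cannot be told apart from the array series. Within a fraction, the correlation of replicate 2 with replicate 3 was 0.997 to 0.998. Promoter windows were read from RefSeq tables with Python 3.11.15.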

Additional observations from a re-analysis of the deposited data

How the results depend on the processing

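Each of 7 counts was recomputed under 11 other settings and with each of the 12 libraries left out. The setting with local background subtraction was chosen after seeing the data. The DN arrays stood apart from the other 9 in 2 of the measured genes on the deposited values, with median scaling and with a smaller offset. With local background subtraction they did so in 0. Leaving out libraries or adding a block could not undo the separation of Myl1 and Myl10, since the array values stayed the same. These 2 genes had been picked for that separation. Myl4 was absent from the setting that kept only probes with a deposited value on all 12 arrays. For Myl1 the smallest DN differences came from that setting and the largest from the deposited values (log2 4.04 against CD4, 3.92 against CD8 and 3.41 against γδ cells).

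Without the libraries labelled CD8 1 and γδ 1, 1 of the 4 genes was called in CD4 against γδ, 1 in CD8 against γδ and 10 and 9 of the actomyosin list in DN against CD4 and CD8. With the replicate number as a block, the list gave 1 in DN against CD4. With the block and without these libraries, 1 gene was called in each of the 3 comparisons between CD4, CD8 and γδ cells, and the list gave 11, 12 and 2 in DN against CD4, CD8 and γδ. With the array series as a block, 1 gene was called in CD4 against γδ and 4 of the list in DN against CD4. The deposited values and local background subtraction gave 1 each for the list in DN against CD4. With 1 library left out, the genes called in CD4 against γδ ran between 0 and 1, and the list between 0 and 5 against CD4 and between 0 and 4 against CD8. The highest list counts came without the library labelled CD8 1 (5 and 4), and there were 3 against CD4 without the library labelled γδ 1 and 1 without DN 2. The share of all genes called was counted only with all libraries and without both of these. Counts under the other settings therefore have no such share to be set against. The causes were not tested.

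Some differences that were never called changed sign. For Myl1, CD4 minus CD8 was 0.0084 without both libraries and without the library labelled CD8 1. For Myl4, CD4 minus CD8 was 0.019 without both libraries and without the library labelled CD8 1, 0.014 with the block and without both, and 0.0030 without CD4 3. For Myl4 also, CD4 minus γδ was 0.0098 without γδ 3, and CD8 minus γδ was 0.0016 without CD8 2, 0.018 without CD8 3 and 0.017 without γδ 3. For Myl6, CD4 minus γδ was -0.58 with local background subtraction, and CD8 minus γδ was 0.087 with median scaling, 0.093 without CD8 2, 0.073 without CD8 3 and 0.092 without γδ 3. With 1 library left out in turn, the lowest values of these differences were -0.047 for Myl1, CD4 minus CD8, then -0.029, -0.027 and -0.029 for Myl4 (CD4 minus CD8, CD4 minus γδ, CD8 minus γδ) and -0.22 for Myl6, CD8 minus γδ. Another scanner gain could not be run, since the files hold 1 signal per spot. Without the detection filter or with probes averaged, no count changed. Dim probes such as Myl4 limit what can be read, since their signal lies close to that of blank spots.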
